A study of Homo sapiens with 6 samples.

Results

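The ABC (ATP-binding cassette) family is a set of proteins that bind and split ATP, most of them to carry substrates across membranes. The 42 members described here are the genes whose symbol consists of ABC, a subfamily letter from A to G and a number, among 19775 genes that the array reads with a probe set of 1 symbol. Their 96 probe sets are part of 54613 tested, and each gene is given by its probe set with the highest mean over all arrays. The data are log2 signals of 6 Affymetrix Human Genome U133 Plus 2.0 arrays, 1 for each RNA sample. All samples came from MHCC97H, an established human hepatocellular carcinoma (HCC) line, heated at 47 °C to a sublethal degree. The residual cells were then kept for 24 h with 0 ng/mL (control, replicates 1 to 3) or 100 ng/mL (POSTN, replicates 1 to 3) of recombinant periostin, a matrix protein secreted by activated hepatic stellate cells. Neither the labels nor the methods say whether the replicates of a condition were separate cultures, so that p-values rest on the spread between the samples deposited. Unheated cells were not analysed here, and the values describe a single cell line.

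In the liver, ABC proteins at the canalicular membrane of hepatocytes pump bile salts, phospholipid, sterols and conjugates into bile. Others return conjugates to the blood, load cholesterol onto lipoproteins, or serve peroxisomes and mitochondria. The same drug pumps, among them ABCB1 (P-glycoprotein), ABCC1 (MRP1) and ABCG2 (BCRP), can carry anticancer agents out of tumor cells. The ABCE and ABCF proteins keep the ATP-binding domains but have no membrane spans, and act in translation. On this array 2 probe sets of different genes have no common scale, so no gene's signal is set against that of another.

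The array files hold no detection calls. A background level of 5.98 was therefore used, the 95th percentile of the mean log2 signal of 107 probe sets of olfactory receptor genes. The 6 arrays had median log2 signals of 5.80 to 5.95, with 47.7% to 49.7% of probe sets above background. Of 10 hepatocyte and HCC markers, 6 were above background in both conditions, among them AFP, KRT8 and KRT18, while APOA1 was within the background range on all 6 arrays. Of 2 leukocyte markers, CD3E was above it on 5 arrays and PTPRC on none. Of 3 endothelial markers, PECAM1 was above it on all 6 arrays, VWF on 1 and CDH5 on none. Of 5 hepatic stellate cell markers, COL1A1 was above it on all 6 arrays, COL3A1 on 4, DES on 1, and LRAT and PDGFRB on none. Both arrays numbered 1 stood apart from the 4 arrays numbered 2 or 3 over the whole array, so the comparison of POSTN with control is followed by one between replicate numbers.

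Of the 42 members, 23 had a mean signal above background in both conditions, 2 (ABCA3 and ABCB9) in 1 condition, and 17 in neither. The drug exporters were mostly measured, with 8 of 10 above background in both conditions. So were all 4 translation factors and all 3 measured members of the mitochondrial list (ABCB6, ABCB8 and ABCB10). The bile exporters were divided. ABCC2 (MRP2), the canalicular pump of conjugated bilirubin, lay at log2 signals of 11.94, 11.85 and 11.87 in control replicates 1, 2 and 3 and at 12.06, 11.88 and 11.79 with POSTN. ABCB11, the bile salt export pump, was within the background range in both conditions, at 3.19, 3.67 and 6.50 in control cells and 6.02, 3.60 and 5.50 with POSTN. Only 2 of these 6 arrays exceeded background, with no order by condition. The partner sterol exporters ABCG5 and ABCG8, which work as a dimer at the canalicular membrane, were within the background range on all 6 arrays, ABCG5 at 2.06, 3.22 and 0.65 in control cells and 1.29, 0.84 and 3.98 with POSTN. ABCB4, the phospholipid floppase of bile, was at the border, at log2 signals of 6.31, 6.02 and 5.60 in the control samples and 6.65, 5.21 and 6.57 in the POSTN samples, 4 of 6 arrays above background. Of 11 measured cholesterol and phospholipid exporters, 4 (ABCA1, ABCA2, ABCA5 and ABCA7) were above background in both conditions. ABCG1, which loads cholesterol onto high-density lipoprotein, was at 6.03, 5.03 and 5.39 in control cells and 5.75, 5.63 and 5.22 with POSTN, above background on 1 array. The sulfonylurea receptors ABCC8 and ABCC9, which regulate potassium channels, were within the background range in both conditions, as were the less known ABCA13, ABCC12 and ABCC13. ABCA4, known as the retinoid flippase of photoreceptors, gave log2 signals of 9.88, 9.23 and 9.31 in control cells and 9.79, 9.64 and 9.70 with POSTN on its brightest probe set, and a mean of 2.26 on its other one, so the 2 disagreed on whether it lay above background. Throughout, a lower signal of a gene in these bulk samples cannot tell fewer cells with its RNA from less RNA per cell.

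**Figure D1:**
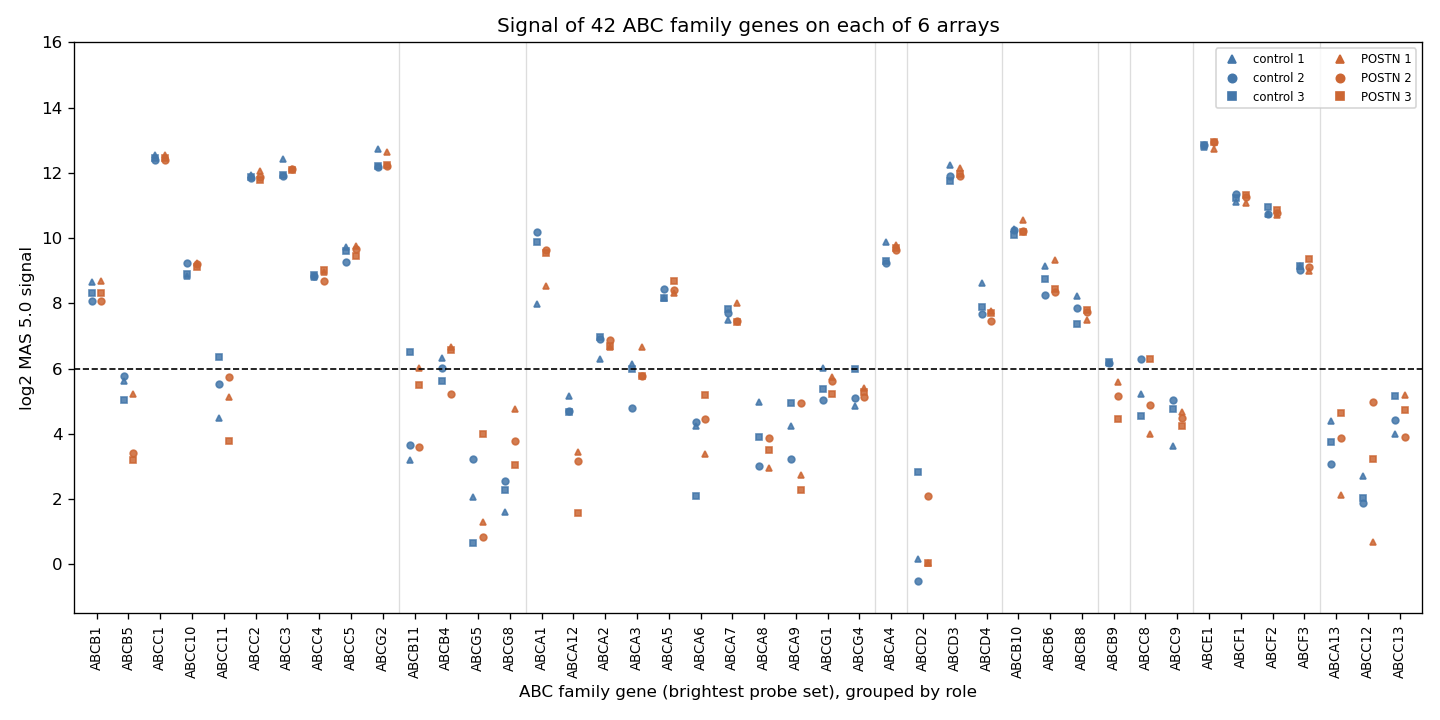
Log2 MAS 5.0 signal (vertical axis) of the 42 ABC genes on each array, by role from left to right (drug, bile, lipid, retina, peroxisome and lysosome, mitochondria, lysosomal peptides, channel regulators, translation factors, less known). Blue is control, orange is POSTN, the marker shape is the replicate number, and a dashed line marks background at 5.98; points above the line mostly lie close together, with ABCA1 the widest among genes above it on all 6 arrays, and points below it scatter by up to several log2 units.

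Between POSTN-treated and control cells, no ABC gene passed the test. The 8 drug exporters above background in both conditions were at nearly the same signal with and without POSTN (log2 differences of -0.018 to 0.20). The 2 others, with means within the background range, were lower with POSTN on their brightest probe sets. ABCB5 differed by -1.525 (standard error 0.74, unadjusted p = 0.067 in limma) and ABCC11 by -0.59 (standard error 0.72). The other probe sets of ABCB5, within the background range on all 6 arrays, differed by 0.87, -0.84 and 0.96. ABCC11 was lower with POSTN for replicate number 3 only (by number 0.65, 0.19 and -2.59). No member above background in both conditions had arrays that separated by condition. In limma, 0 of 42 members had an adjusted p under 0.05, against 0% of all probe sets, and the lowest adjusted p of a member was 0.9999. At an unadjusted p under 0.05 limma counted 2 members, where 2.48% of all genes passed, and the methods' t-test counted 3, where 3.1% of all genes passed, of which 0 remained after Benjamini-Hochberg adjustment. Of the 42, 23 were higher and 19 lower with POSTN as deposited, and 13 higher and 29 lower after each array was centred on its median. The median log2 fold change of the 42 was 0.016 as deposited and -0.035 after centring, beside 0.00015 over the brightest probe sets of all 19775 genes as deposited. Over all probe sets the median likewise moved, from 0.010 as deposited to -0.041 after centring. The balance of higher and lower members thus turned with the scaling. Over the 23 members above background in both conditions, the median size of the log2 fold change was 0.047, beside 0.073 over 11291 such genes. By role, the adjusted p was over 0.05 in all 10 drug exporters, 7 bile exporters (3 of them drug exporters too), 11 cholesterol and phospholipid exporters, 3 peroxisomal and lysosomal members, 3 mitochondrial members and 4 translation factors.

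Among the drug exporters, ABCC1, which exports glutathione conjugates, had log2 signals of 12.54, 12.41 and 12.44 in control cells and 12.54, 12.40 and 12.46 with POSTN. Its POSTN minus control difference was 0.0028 log2 units (standard error 0.083, 95% confidence interval -0.18 to 0.19). ABCG2, an exporter of drugs and urate, differed by -0.018 (95% confidence interval -0.38 to 0.35). ABCB1 gave 8.65, 8.08 and 8.32 in control cells and 8.69, 8.08 and 8.33 with POSTN, a log2 difference of 0.016 (95% confidence interval -0.46 to 0.49). For each of these 3 pumps the control and POSTN arrays overlapped, and same-numbered arrays lay closer to each other than arrays of 1 condition did in ABCB1. ABCC2 differed by 0.021 (95% confidence interval -0.19 to 0.23). ABCC3 (MRP3), a basolateral exporter of bile acid conjugates, was at 12.43, 11.91 and 11.93 in control cells and at 12.12, 12.12 and 12.10 with POSTN. It differed by 0.017 on this probe set and by 0.087 to 0.17 on its 3 other probe sets above background. ABCC4 (MRP4), an exporter of cyclic nucleotides and bile acids, was at 8.80, 8.83 and 8.88 in control cells and 8.95, 8.69 and 9.02 with POSTN on its brightest probe set. It differed by 0.047 there (95% confidence interval -0.28 to 0.37) and by 0.13 and 0.17 on the 2 other probe sets above background. ABCC5 (MRP5), an exporter of nucleotide analogs, differed by 0.091, 0.10 and 0.039 on its 3 such probe sets. ABCC1 differed by -0.22 on its second probe set (unadjusted p = 0.12 in limma), lower with POSTN for all 3 replicate numbers (by -0.32, -0.12 and -0.23). Blocked by replicate number, its 95% confidence interval was -0.41 to -0.036 (unadjusted p = 0.024 and adjusted p = 0.97 in limma). ABCC10 (MRP7), an exporter of taxanes, was at 8.82, 9.22 and 8.89 in control cells and 9.24, 9.20 and 9.11 with POSTN, a difference of 0.20 (standard error 0.15) with overlapping conditions.

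None of the lipid exporters passed. ABCA1, which moves cholesterol and phospholipid to apolipoprotein A-I, differed by -0.12 (standard error 0.50) on its brightest probe set and by 0.014 on its second one. POSTN was above control for replicate number 1 (by 0.55 on the brightest probe set) and below it for numbers 2 (-0.55) and 3 (-0.36). A fit that holds the indicator of number 1 gave the same difference with a standard error of 0.18. ABCA5, a lysosomal member, was at 8.17, 8.44 and 8.16 in control cells and 8.33, 8.40 and 8.67 with POSTN, a difference of 0.21 (standard error 0.17). ABCA3, a surfactant lipid transporter, differed by 0.44 (standard error 0.52), with log2 signals of 6.14, 4.79 and 5.98 in control cells and 6.67, 5.78 and 5.78 with POSTN. Both sets of arrays overlapped in each of these genes, as they did in ABCA4, which differed by 0.24 (standard error 0.17).

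Of the peroxisomal and lysosomal members, ABCD3, which imports branched-chain acyl-CoA into peroxisomes, differed by 0.043 and 0.090 on its 2 probe sets. ABCD4, of lysosomal cobalamin transport, was at 8.63, 7.66 and 7.88 in control cells and 7.78, 7.46 and 7.70 with POSTN (log2 fold change -0.41, standard error 0.26). The 2 conditions overlapped, and control replicate 1 alone lay above 8. ABCB6, ABCB8 and ABCB10, the measured members of the mitochondrial list, differed by -0.011, -0.14 and 0.11. The translation factor ABCE1, which recycles ribosomes, was at 12.78, 12.86 and 12.87 in control cells and 12.74, 12.96 and 12.95 with POSTN, a difference of 0.049 (standard error 0.088). ABCF1, which acts in initiation, was at 11.12, 11.34 and 11.24 in control cells and 11.09, 11.25 and 11.32 with POSTN, and differed by -0.014 (standard error 0.10). The arrays of both conditions overlapped in ABCE1 and ABCF1.

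Of the 23 members above background in both conditions, 21 had a 95% confidence interval inside -1 to 1 on the log2 scale, that is, inside a fold change of 2 in either direction. In 13 the interval lay inside -0.5 to 0.5, or in 16 in a fit blocked by replicate number. The exceptions to the wider limits were ABCA1 and ABCB4. In the blocked fit 22 lay inside -1 to 1, with ABCA1 among them at -0.51 to 0.27.

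The study's thresholds join an unadjusted p under 0.05 to a fold of more than 2 in either direction. In limma 2 members met them, where 2.07% of all genes did, and both were lower with POSTN, where 0.915% of all genes were. Of the 23 members above background in both conditions 0 met them, compared with 0.0354% of such genes. With the methods' t-test in place of limma 3 members met them, ABCG8 beside the same 2, where 1.62% of all genes did. ABCB9, a lysosomal peptide transporter, had log2 signals of 6.18, 6.16 and 6.19 in control cells and 5.60, 5.16 and 4.45 with POSTN. Its log2 fold change was -1.11 (standard error 0.49, unadjusted p = 0.046). All 3 control arrays lay just above background and all 3 POSTN arrays under it. ABCA12, a lipid transporter of skin lamellar granules named here after its values were seen, was at 5.16, 4.70 and 4.65 in control cells and 3.44, 3.17 and 1.58 with POSTN (log2 fold change -2.11, unadjusted p = 0.030), with all 6 arrays within the background range. With log2(value + 50) both fell short, at -0.53 for ABCB9 and -0.46 for ABCA12. Blocked by replicate number ABCA12 met the thresholds (unadjusted p = 0.045 in limma) while ABCB9 did not (unadjusted p = 0.055). Both missed them without control replicate 1, 2 or 3 or POSTN replicate 3, and ABCB9 also without POSTN replicate 2. Without POSTN replicate 1 the drug exporter ABCB5 met them beside both, on its brightest probe set. The 2 other probe sets of ABCB9 were within the background range on all 6 arrays and differed by -0.48 and -0.52. ABCG8 was the other member whose arrays did not overlap between conditions, at 1.61, 2.55 and 2.29 in control cells and 4.77, 3.77 and 3.04 with POSTN (log2 fold change 1.71, unadjusted p = 0.079), all within the background range. These 3 of 42 members compare with 7.13% of all genes without overlap, and among the members above background in both conditions it was 0 of 23, compared with 4.76% of such genes.

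**Figure D2:**
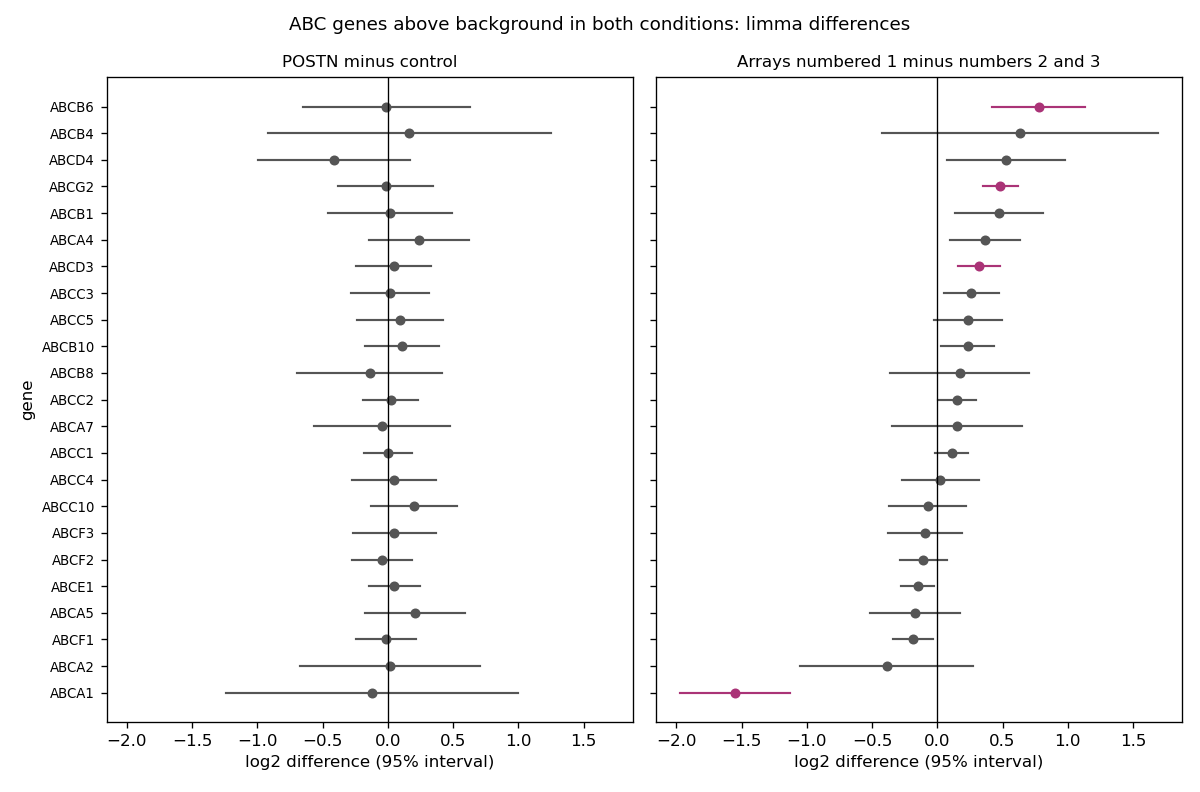
Log2 difference (horizontal axis) with its 95% confidence interval from limma for the 23 ABC genes above background in both conditions, for POSTN minus control on the left and for arrays numbered 1 minus arrays numbered 2 and 3 on the right. Purple marks an adjusted p under 0.05; no gene is purple on the left, and ABCA1, ABCB6, ABCG2 and ABCD3 are on the right.

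Between replicate numbers, 4 ABC genes differed. In the arrays numbered 1, of both conditions, ABCA1 was lower, at 0.34 times the signal of numbers 2 and 3, and ABCG2 and ABCB6 were higher, at 1.40 and 1.71 times. ABCD3 was higher on its brightest probe set, at 1.25 times, and lower on its other one above background. These 4 of 42 members (9.52%) passed an adjusted p under 0.05 in limma with condition in the fit, where 5.62% of all probe sets and 8.95% of the brightest probe sets of all genes passed, so the family's share was near that of all genes. Of all genes 4.64% passed as higher and 4.31% as lower. Of the 23 members above background in both conditions, 17.4% passed, compared with 15.4% of such genes. The median log2 difference of the 42 was 0.081, beside -0.0018 over all genes. What the numbers stand for is not stated, and the split into number 1 against numbers 2 and 3 was made with these data in view. A test over the 3 numbers that needs no such split called 3 members, ABCA1, ABCG2 and ABCB6, where 6.64% of all genes passed. With a prior variance that does not follow the signal, 0 members and 0 probe sets of the whole array passed, and the adjusted p was 0.26 for ABCA1 and 0.33 for ABCG2.

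ABCA1 had log2 signals of 7.99, 10.19 and 9.89 in control replicates 1, 2 and 3 and of 8.54, 9.64 and 9.53 with POSTN. Both arrays numbered 1 lay under the lowest of the other 4. The log2 difference was -1.55 (standard error 0.19, adjusted p = 0.00075), with -2.05 within control and -1.05 within POSTN. The second probe set gave 7.60, 9.12 and 8.97 in control cells and 7.88, 8.93 and 8.93 with POSTN, a log2 difference of -1.24 (standard error 0.15, adjusted p = 0.00049). Both probe sets of ABCA1 thus separated the arrays by number in the same direction. ABCG2, read by 1 probe set, was at 12.73, 12.17 and 12.21 in control cells and at 12.64, 12.20 and 12.23 with POSTN. Its log2 difference of 0.48 (standard error 0.060, adjusted p = 0.00074) was 0.54 within control and 0.43 within POSTN. ABCA1 and ABCG2 kept an adjusted p under 0.05 without each array in turn.

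ABCB6 is a porphyrin transporter, listed here with the mitochondrial members. It had log2 signals of 9.14, 8.25 and 8.76 in control cells and 9.32, 8.35 and 8.45 with POSTN. Its log2 difference was 0.78 (standard error 0.16, adjusted p = 0.017), and this call was lost without control replicate 1 (0.92, adjusted p = 0.13), without POSTN replicate 1 (0.63, adjusted p = 0.34), without POSTN replicate 2 (0.73, adjusted p = 0.052) and without POSTN replicate 3 (0.78, adjusted p = 0.054). ABCD3 was at 12.25, 11.91 and 11.75 in control cells and 12.16, 11.92 and 11.96 with POSTN on its brightest probe set, a log2 difference of 0.32 (adjusted p = 0.028). Its other probe set above background ran the opposite way, at 10.51, 10.79 and 10.85 in control cells and 10.38, 11.09 and 10.95 with POSTN, with a log2 difference of -0.47 (adjusted p = 0.012). The direction of ABCD3 between replicate numbers thus depends on the probe set, and of the 6 fits without 1 array, the call on its brightest one held only in that without control replicate 2. ABCE1 passed on its second probe set (-0.29, adjusted p = 0.012), and had -0.15 (adjusted p = 0.19) on its brightest one.

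**Figure D3:**
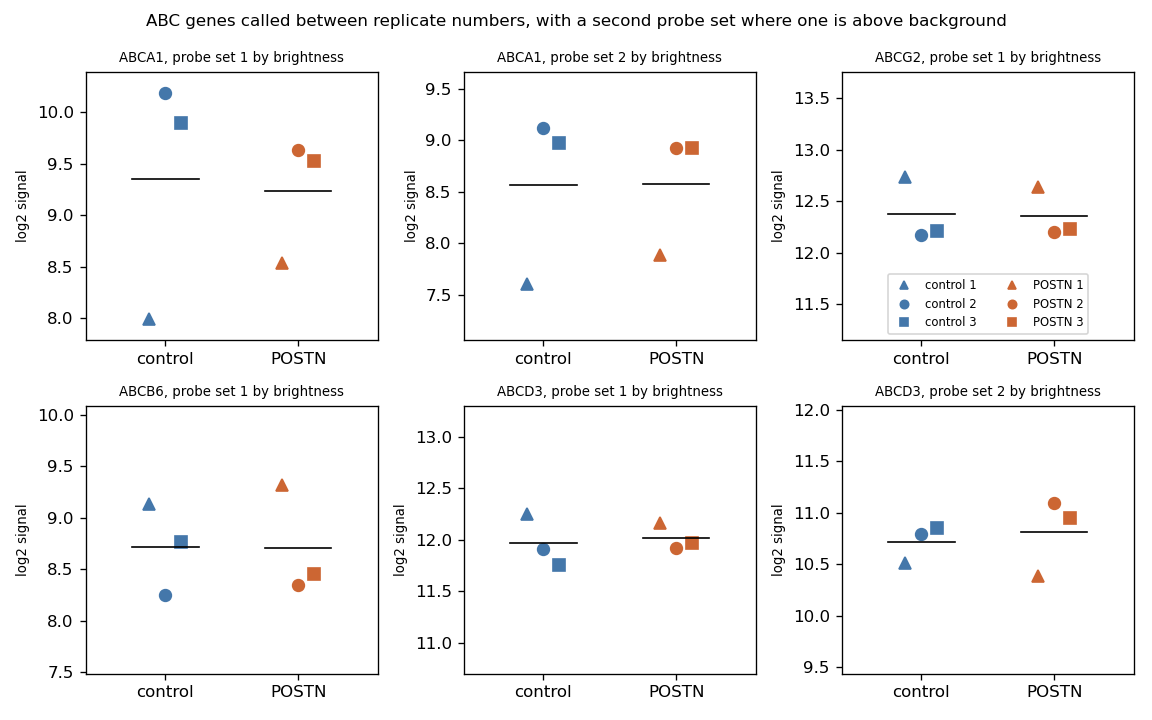
Log2 signal (vertical axis, 2.6 log2 units high in every panel) of the probe sets of ABCA1, ABCG2, ABCB6 and ABCD3 above background, in control (blue) and POSTN (orange) arrays. The marker shape is the replicate number and the bar the mean of 3 arrays; triangles, the arrays numbered 1, lie under the others for both probe sets of ABCA1 and above them for ABCG2 and ABCB6, and ABCD3 changes side between its 2 probe sets.

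The drug exporters other than ABCG2 did not pass between replicate numbers. Of the 10, 1 passed. By brightest probe set, 8 were higher and 2 lower in the arrays numbered 1 (7 and 3 after quantile normalization). ABCB1 had a log2 difference of 0.47 (standard error 0.15, adjusted p = 0.12), with both arrays numbered 1 above the other 4. A further probe set reads ABCB1 together with its neighbor and close paralog ABCB4. It gave 8.85, 8.43 and 8.07 in control cells and 9.00, 7.93 and 8.20 with POSTN, a log2 difference of 0.77 (adjusted p = 0.022), and its signal cannot be divided between the 2 genes. ABCC3 had a log2 difference of 0.26 (adjusted p = 0.17), at 0.51 within control and 0.0097 within POSTN, and passed only without POSTN replicate 1 (adjusted p = 0.025). ABCC4 differed by 0.021 on its brightest probe set and by -0.43 (adjusted p = 0.21) and -0.23 (adjusted p = 0.75) on its 2 others above background, where both arrays numbered 1 lay under the other 4. ABCC1 differed by 0.11. The other probe sets of ABCC3 above background differed by 0.28, 0.37 and -0.29. ABCC10 differed by -0.075 on its brightest probe set and by 0.21 on its other one above background. ABCC1 and ABCC5 were higher on every probe set above background. ABCC2 differed by 0.15 (adjusted p = 0.26). The 4 translation factors were all lower in the arrays numbered 1 (median log2 difference -0.13), also after median centring or quantile normalization, and on their brightest probe sets none passed. In 16 of the 42 members the arrays numbered 1 did not overlap the other 4, where 31.6% of all genes showed no overlap, and in 14 of the 23 above background in both conditions, where 44.4% did.

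Genes that work beside the ABC transporters were counted in the same fits. Solute carriers of bile acids and drugs, transcription factors known to act on ABC genes, sterol handling and the glutathione supply of the MRP pumps are the lists used. Of their measured genes, 0 of 12, 0 of 15, 0 of 9 and 0 of 11 passed between POSTN and control in limma. APOE alone, a lipoprotein ligand, was below 0.05 before adjustment (log2 fold change 0.70, unadjusted p = 0.044 in limma). Of all genes 2.48% were below it, and of those above background in both conditions 0.744%. Between replicate numbers, 1 of 12 solute carriers passed, 8.95% of all genes having passed there and 15.4% of those above background in both conditions. This was SLC51B, a chain of the basolateral bile acid exporter OST, at 10.67, 8.38 and 8.59 in control cells and 10.68, 8.71 and 8.14 with POSTN (log2 difference 2.22, adjusted p = 1.6e-05). Both arrays numbered 1 lay above the other 4, while SLC51A, the partner chain, was within the background range on all 6 arrays. SLCO2B1 and SLCO4A1, uptake carriers of organic anions, were above background on all 6 arrays, while SLC10A1 (NTCP) and SLCO1B1, hepatocyte carriers of bile acids and drugs, were within the background range on all 6. SLCO1B3 was at 4.97, 5.58 and 5.26 in control cells and 5.98, 6.30 and 6.25 with POSTN (unadjusted p = 0.066 in limma). In 3 of the 12 solute carriers the conditions did not overlap (2 higher and 1 lower with POSTN), where 7.13% of all genes showed no overlap. Among the 6 above background in both conditions it was 0, compared with 4.76% of such genes. No overlap was seen in 2 of 9 sterol handling genes, 1 of 11 glutathione genes and 0 of 15 transcription factors. Above background in both conditions these were 1 of 6, 1 of 10 and 0 of 12.

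Of 15 transcription factors, 2 passed between replicate numbers, both higher in the arrays numbered 1, a share near that of all genes. NR1H3, the oxysterol receptor LXR alpha, was at 9.15, 8.38 and 8.32 in control cells and 9.02, 8.25 and 8.21 with POSTN (log2 difference 0.79, adjusted p = 0.0046). PPARG, a receptor of fatty acids, differed by 0.36 (adjusted p = 0.013). LXR is known to induce ABCA1, and the signals of NR1H3 and ABCA1 differed in opposite directions between the same arrays. A link between these 2 differences was not tested. Of 9 sterol handling genes, NPC1, which exports cholesterol from lysosomes, passed, and it was lower in the arrays numbered 1 (log2 difference -0.48, adjusted p = 0.00088). Of 11 glutathione genes, 3 passed, to be read against the same 8.95% and 15.4%. GSTA1, a glutathione transferase, was higher in the arrays numbered 1 by 1.41 (adjusted p = 8.5e-06) and GSTP1 by 0.34 (adjusted p = 0.040). SLC7A11, the cystine importer, was lower by 0.44 (log2 difference -0.44, adjusted p = 0.00044). GCLC and GCLM, the subunits of the enzyme that starts glutathione synthesis, differed by -0.10 and 0.0010.

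**Figure D4:**
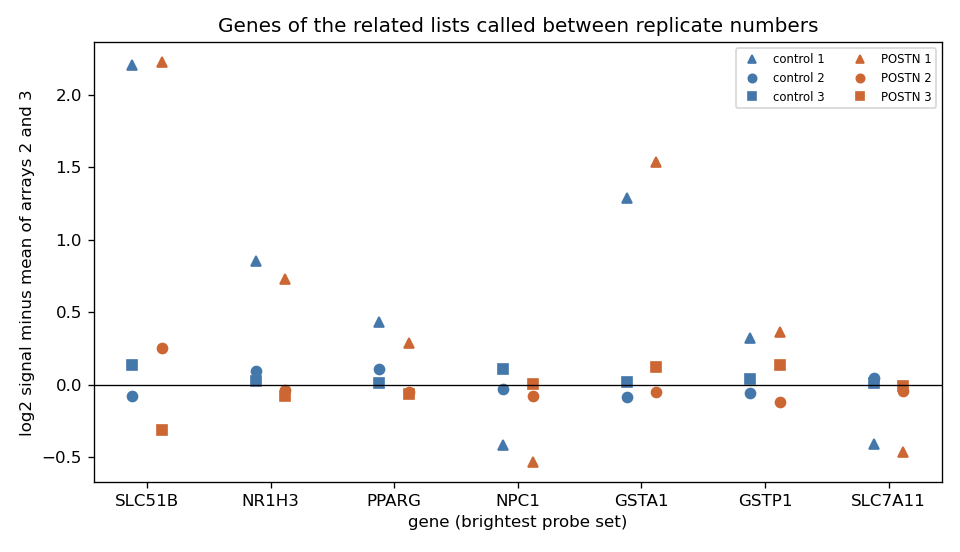
Log2 signal minus the mean of the 4 arrays numbered 2 and 3 (vertical axis) for the 7 genes of the related lists that passed between replicate numbers. Blue is control, orange is POSTN and the shape is the replicate number; the triangles, numbered 1, lie above the other arrays in SLC51B, NR1H3, PPARG, GSTA1 and GSTP1 and below them in NPC1 and SLC7A11, in both conditions.

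The same arrays differed in hepatocyte markers. Of 10, 6 were higher and 4 lower in the arrays numbered 1. In 6 markers the arrays numbered 1 did not overlap the others (4 higher, 2 lower), where 31.6% of all genes showed no overlap. At an adjusted p under 0.05 in limma, 4 passed as higher, where 4.64% of all genes did, and 0 passed as lower, where 4.31% did. The 4 were TF (log2 difference 2.84), FGB (2.65), ALB (1.85) and SERPINA1 (2.92), with SERPINA1 within the background range in numbers 2 and 3. The summed linear signal of the 10 was 47900 and 51800 in the arrays numbered 1 and 50300 to 55100 in the others, and as KRT8 and KRT18 make up most of it, it hardly follows the other markers. Of 3 endothelial markers, PECAM1 was higher (0.51, adjusted p = 0.018), and the summed linear signal of the list, nearly all of it from PECAM1, was 1310 and 1550 in the arrays numbered 1 and 906 to 1180 in the others, with CDH5 within the background range on all 6 arrays. Of 5 hepatic stellate cell markers and 2 leukocyte markers, 0 passed in this fit. Their summed signals were 332 and 387 in the arrays numbered 1 against 386 to 574 in the others for stellate cells, and 49 and 90.7 against 81 to 140 for leukocytes. Such sums add probe sets without a common scale, several of them within the background range, and serve as a description only. The part of these differences in those of the ABC genes was not tested.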

How the data were processed

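The deposited values are log2 signals, for which the authors ran MAS 5.0 through affy, an R package, on the scanned arrays (versions not given in the sources used here). MAS 5.0 scales each array, here to a mean linear signal of 500 without the highest and lowest 2%, and subtracts a local background, so that dim probe sets scatter. The median SD within a condition was 1.29 under a mean log2 signal of 4 and 0.13 from 10 upwards, and the number of arrays limits the precision. All 54613 probe sets other than 62 Affymetrix controls were fitted in R 4.3.3 with limma 3.58.1 (lmFit, then eBayes with trend, where the prior variance is a function of mean signal), with Benjamini-Hochberg adjustment over all of them. Condition was the only term for POSTN against control, and condition with an indicator of number 1 was used for replicate numbers. The methods' t-test was taken as unpaired with equal variances. Symbols came from the array's annotation, and all 42 matched RefSeq by gene identifier. Deviations of same-numbered arrays correlated at 0.529, 0.235 and 0.239 over the 25320 probe sets above background (0.088, 0.034 and 0.025 over all probe sets). Above background, control 2 with POSTN 3 gave 0.201 and control 3 with POSTN 2 gave 0.15. Number 1 with another number gave -0.358 to -0.304. On the data alone the arrays numbered 1 thus went together, while a pairing within numbers 2 and 3 was hardly shown. A fit with the number as a block was an alternative, given where it changed a call. Values on each array are given for ABC members fixed by role, for the 6 largest POSTN differences with a condition above background, and for members that passed between replicate numbers. Members, lists and the split by number were chosen with earlier results of these data known. Genes without a probe set of 1 symbol in the tables used were not analysed here.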

Additional observations from a re-analysis of the deposited data

How the results depend on the processing

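The count of 0 ABC members and of 0 probe sets past an adjusted p under 0.05 between POSTN and control was the same under every alternative run, among them the replicate number as a block (replicate block, 0 members and 0 probe sets), quantile normalization, median centring, log2(value + 50), a filter on dim probe sets, the methods' t-test, leaving out each array, leaving out both arrays numbered 1, and a fit with the number 1 indicator, which was added after the data were seen. Between replicate numbers, the count of 4 members was 0 without the trend of the prior variance, where the whole array also had 0 in place of 3069, and it ranged from 2 to 4 when 1 array was left out, with 657 to 3073 probe sets over the whole array. It was 2 without control replicate 1, POSTN replicate 2 or POSTN replicate 3. The array count was 718 without control replicate 1, 657 without POSTN replicate 1 and 1869 without POSTN replicate 3. Leaving out an array numbered 1 leaves 1 array of that number, assumed to vary like the others. With the cross-reacting types of probe set (_x_at, _s_at) left out, 1750 probe sets passed. The median over all probe sets of ABCD3 was -0.077, opposite to its brightest one. The count of 2 members at the study's thresholds ranged from 0 to 3. Of 365 values of 22 named genes for POSTN against control under an alternative, 53 had another sign than in the full fit, none of them past the threshold. Dim probe sets limit 17 of the 42 members.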

Other observations

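ABC proteins that carry other symbols were outside the rule for members. TAP1 and TAP2, which together carry peptides into the endoplasmic reticulum for antigen presentation, were above background on all 6 arrays. TAP1 had a log2 fold change of 0.20 with POSTN and a log2 difference of -0.26 in the arrays numbered 1, and TAP2 had -0.032 and -0.34 (adjusted p = 0.063 in limma). CFTR, a chloride channel, was within the background range on all 6 arrays. Among the dimmer probe sets of members, 1 of ABCA8 (log2 fold change 3.01, unadjusted p = 0.0080) and 1 of ABCG1 (2.40, unadjusted p = 0.049) met the study's thresholds with a mean signal within the background range in both conditions. These 2 probe sets were named after their values were seen. In all, 4 of the 96 member probe sets met the thresholds, where 2.56% of all probe sets did. The other probe sets of ABCA8 differed by -0.53 and -0.88, and those of ABCG1 by 0.051, 1.09 and -1.765.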
